A study of Rattus norvegicus with 4 samples.

Results

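The RNA-seq of cultured rat Schwann cells (SCs) was examined for 10 genes that drive a cell through mitosis. They were the kinase family genes Aurka, Aurkb, Plk1, Plk4, Ttk, Bub1, Bub1b and Cdk1 and the cyclins Ccnb1 and Ccna2. They were taken by their symbols from a table of read counts for 17949 genes, and all 10 had a row. Primary SCs from sciatic nerve, the glia that myelinate peripheral axons, were infected for 48 h with a lentivirus. The Lenti-AS group (n = 2) received a virus expressing the Egr2-AS, an antisense RNA complementary to the promoter of the myelination factor gene Egr2, from a backbone with a red fluorescent reporter (DsRed). The control Lenti-GFP group (n = 2) received the backbone carrying a green fluorescent protein, so an effect of the reporter and one of the antisense RNA cannot be told apart. All cells were grown with serum, forskolin and heregulin-β1, a medium in which SCs divide. RNA was taken from the same number of cells for each sample, and the labels call the samples of a group biological replicates without naming separate animals, so the p-values measure the spread between these samples.

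The 10 genes act in sequence. CDK1 bound to cyclin A2 and then to cyclin B1 phosphorylates the proteins that reshape the cell for mitosis. The Aurora and Polo-like kinases build and correct the spindle, and TTK, BUB1 and BUBR1 (the product of Bub1b) hold back anaphase until each chromosome is attached. Transcripts of these genes are low in G1 and peak in G2 and mitosis, and in other mammals complexes that bind a promoter element called the cell cycle genes homology region (CHR) take part in that timing. Adult SCs in intact nerve rarely divide, whereas SCs in culture and after nerve injury do.

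The promoter sequences of the group were read first, as a description, since CHR-binding complexes act on such genes in other mammals. Of the 10 genes, 8 had a promoter window, 250 bases before the annotated start and 50 after it, in the RefSeq table of the GRCr8 assembly, and Ccna2 and Aurkb had none. The core of the CHR, TTTGAA, was present on either strand in 5 of the 8, against 11.5% of the promoters of 9487 genes tested and 18.3% of all 33469 promoters of the table. The CCAAT box, the site of the factor NF-Y, was present on either strand in 4 of the 8, against 37.5% of all promoters. Of 66 partner genes with a promoter, 34.8% held TTTGAA and 56.1% CCAAT, and of 15 S phase genes 13.3% and 73.3%, so the share with CCAAT was higher in both lists than the 50% of the mitotic genes. Cdk1, Plk1 and Ttk held both, as did 7.41% of all promoters. Below, these 3 are shown with Bub1b, which has the CHR core only, and Ccnb1, which has CCAAT boxes only. Capitals mark each TTTGAA and CCAAT, also where they lie on the opposite strand and read TTCAAA or ATTGG, and all sequences run 5′ to 3′ on the gene's strand.
Cdk1: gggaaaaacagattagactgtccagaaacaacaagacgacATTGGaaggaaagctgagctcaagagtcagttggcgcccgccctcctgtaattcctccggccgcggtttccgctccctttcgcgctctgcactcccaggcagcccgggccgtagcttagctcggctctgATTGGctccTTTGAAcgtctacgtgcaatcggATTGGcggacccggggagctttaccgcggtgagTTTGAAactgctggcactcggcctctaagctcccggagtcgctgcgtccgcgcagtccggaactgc
Plk1: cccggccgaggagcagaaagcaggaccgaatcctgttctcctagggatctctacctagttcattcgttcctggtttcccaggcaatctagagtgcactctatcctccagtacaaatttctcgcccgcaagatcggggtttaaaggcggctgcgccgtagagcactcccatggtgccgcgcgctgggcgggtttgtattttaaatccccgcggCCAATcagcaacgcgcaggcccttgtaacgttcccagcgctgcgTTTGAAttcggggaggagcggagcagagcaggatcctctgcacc
Ttk: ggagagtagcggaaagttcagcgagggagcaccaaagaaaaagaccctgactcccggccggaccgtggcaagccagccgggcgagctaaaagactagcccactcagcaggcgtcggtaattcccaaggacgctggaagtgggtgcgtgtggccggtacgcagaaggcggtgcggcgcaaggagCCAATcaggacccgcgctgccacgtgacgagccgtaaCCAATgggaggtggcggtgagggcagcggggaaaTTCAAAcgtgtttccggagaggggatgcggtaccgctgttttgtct
Bub1b: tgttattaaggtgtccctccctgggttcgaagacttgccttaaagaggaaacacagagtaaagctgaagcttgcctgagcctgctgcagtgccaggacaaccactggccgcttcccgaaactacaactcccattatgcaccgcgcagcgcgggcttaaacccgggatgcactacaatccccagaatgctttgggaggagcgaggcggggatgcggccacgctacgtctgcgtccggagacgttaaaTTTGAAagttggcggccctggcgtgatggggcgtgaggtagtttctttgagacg
Ccnb1: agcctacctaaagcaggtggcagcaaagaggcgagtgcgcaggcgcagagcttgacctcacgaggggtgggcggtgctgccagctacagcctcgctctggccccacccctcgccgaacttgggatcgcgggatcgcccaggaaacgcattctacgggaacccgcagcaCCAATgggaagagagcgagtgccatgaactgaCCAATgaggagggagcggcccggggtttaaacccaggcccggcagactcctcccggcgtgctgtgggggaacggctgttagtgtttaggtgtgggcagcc

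The regions are chr20:19265043-19265342 on the plus strand for Cdk1, chr1:186147408-186147707 (plus) for Plk1, chr8:93634389-93634688 (plus) for Ttk, chr3:126016817-126017116 (plus) for Bub1b and chr2:33655176-33655475 (minus) for Ccnb1, all in GRCr8, whereas the reads were counted on rn6. In Cdk1 the CHR cores began 72 and 16 bases before the start, and in Bub1b 4 bases before it. In Plk1 the core began 6 bases after the start, with a CCAAT box 38 bases before it. The Plk4 promoter held 1 CHR core, on the opposite strand, and the windows of Aurka and Bub1 held neither motif. Each window rests on the annotated start as listed, which was not checked against other evidence. A window with no match, as for Aurka and Bub1, therefore does not show that the gene's promoter lacks the motif, and the shares above carry the same limit. The letters describe the windows only.

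**Figure D1:**
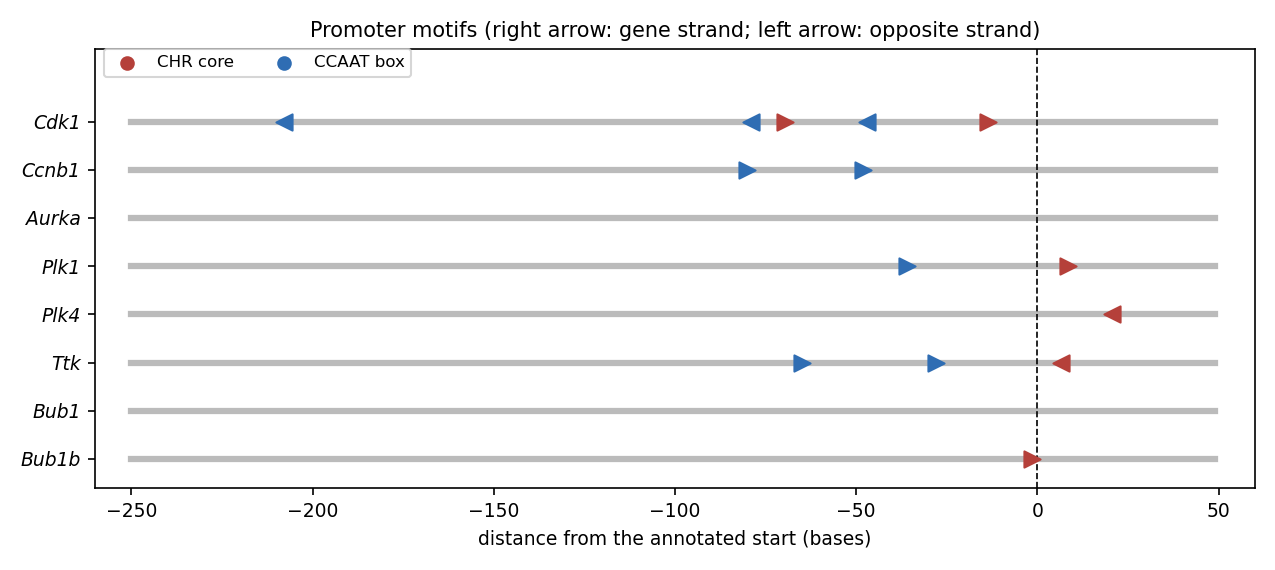
Position of the CHR core (red) and the CCAAT box (blue) in the promoter windows of 8 mitotic genes, in bases from the annotated start, with the arrow giving the strand. The CHR cores of Plk1, Plk4, Ttk and Bub1b and 1 of the 2 in Cdk1 lie close to the start, and the windows of Aurka and Bub1 hold no match. The annotated starts were not checked, so an empty window does not show that a promoter lacks the motifs.

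Counts in the table summed to between 74024323 and 96185890 per sample. Values are given as CPM, that is counts per 1000000 of a library size scaled by edgeR's TMM method. For the test, a gene needed 10 counts or more in 2 samples, which left 12446 genes for edgeR's quasi-likelihood model. P-values were adjusted over all of them by the Benjamini-Hochberg method, and calls required an adjusted p below 0.05 together with a 1.3-fold change, the cut-offs of the study's methods. The 10 Schwann cell markers summed to 9469 and 9539 CPM in Lenti-GFP and to 10907 and 9821 CPM in Lenti-AS, with 1 of them called higher (Mbp, a myelin gene). Of 10 fibroblast markers 9 had a row, and their sum was 1010 and 869 CPM in Lenti-GFP, 2487 CPM in Lenti-AS 1 and 425 CPM in Lenti-AS 2, nearly all of it from the collagen genes Col1a1 and Col1a2, while Dcn, Lum, Thy1 and Dpt had at most 3 counts in any sample. In Lenti-AS 1 the Schwann cell marker Sox10 was also high, at 163 CPM against 61.2 to 77.1 CPM in the other samples. Macrophage markers summed to 3.57 and 3.76 CPM in Lenti-GFP and 4.30 and 4.55 CPM in Lenti-AS, with 8 of 10 under 1 CPM in all samples. Endothelial markers summed to 25.6 and 25.4 against 20.1 and 19.2 CPM, with 4 of 6 under 1 CPM. Most of that sum came from Tek, at 19.8 and 20.2 CPM in Lenti-GFP and 15.3 and 14.7 CPM in Lenti-AS. Tek was not called by edgeR (adjusted p = 0.0559) but was called lower by DESeq2 (adjusted p = 0.00324). Globin genes held 258485 counts in Lenti-AS 2, or 0.349% of that library, and at most 944 in any other sample. The Schwann cell and macrophage sums were thus higher in both Lenti-AS samples and the endothelial sum lower, and the part of these lists in the results was not tested. In RNA from a whole culture, a larger share of dividing cells and more RNA per dividing cell cannot be told apart.

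All 10 mitotic genes passed the count filter, and all 10 were higher in both Lenti-AS samples than in both Lenti-GFP samples. Their fitted fold changes lay between 1.28 and 1.53. Of the 10, 7 were called higher (Cdk1, Ccna2, Aurkb, Plk1, Ttk, Bub1 and Bub1b) and 0 lower, where 1.31% of all genes tested were called higher and 0.667% lower. With no fold limit 8 passed, where 1.4% of all genes did, and all 10 had an unadjusted p under 0.05, as did 12.5% of all genes in that direction. Separation of the groups by itself is common in these data, since 27.7% of all genes tested lay higher in both Lenti-AS samples. The group as a whole was steady within each condition: its summed level was 509 and 512 CPM in Lenti-GFP and 699.7 and 694 CPM in Lenti-AS, a ratio of the means of 1.37. As a share of all counts, with no scaling, the 10 genes took 0.0505% and 0.0504% in Lenti-GFP and 0.0704% and 0.0705% in Lenti-AS.

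Of the engine of mitotic entry, the catalytic subunit and the earlier cyclin were called and the later cyclin fell just short. Cdk1 had 107 and 113 CPM in Lenti-GFP and 152 and 143 CPM in Lenti-AS, from 9968 to 13327 counts. Its lowest Lenti-AS sample lay 29.6 CPM above its highest Lenti-GFP sample, more than the 9.06 CPM that separated its replicates in Lenti-AS. It rose by 0.42 on the log2 scale (standard error 0.0629, adjusted p = 0.0409 by edgeR). Ccna2, whose cyclin partners CDK2 in S phase and CDK1 in G2, rose more, from 53.9 and 52.5 CPM to 74.2 and 81.3 CPM (log2 fold change 0.55 with a standard error of 0.0757, adjusted p = 0.0360 by edgeR). Ccnb1, the cyclin that carries CDK1 into mitosis, had 83.4 and 82.3 CPM in Lenti-GFP and 111 and 105 CPM in Lenti-AS. The groups did not overlap and its adjusted p was 0.0464 by edgeR, but its fitted log2 fold change of 0.3782 lay under the limit of 0.3785, so it was not called.

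Of the Aurora kinase genes Aurkb was called and Aurka was not. Aurkb, the kinase of the chromosomal passenger complex that corrects faulty attachments, had 26.6 and 24.6 CPM in Lenti-GFP and 36.6 and 40.1 CPM in Lenti-AS (log2 fold change 0.59 with a standard error of 0.0796, adjusted p = 0.0335 by edgeR). Aurka, the centrosomal kinase that activates PLK1, had 8.32 and 7.27 CPM in Lenti-GFP and 11.0 and 11.6 CPM in Lenti-AS. With 689 to 963 counts it was the least counted of the group, and its samples within a group differed by 1.05 and 0.639 CPM against 2.66 CPM between the groups. Its log2 fold change of 0.54 had the largest standard error of the 10 (0.12) and an adjusted p of 0.0813 by edgeR, so it was not called. The reference lists 3 pseudogenes named after Aurka and 1 after Cdk1, so some reads of these genes may belong to copies or be lost to them.

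The Polo-like kinase genes held both ends of the range. Plk1, which acts from mitotic entry to cytokinesis, changed most, from 29.5 and 29.7 CPM in Lenti-GFP to 41.6 and 49.1 CPM in Lenti-AS (log2 fold change 0.62 with a standard error of 0.0942, adjusted p = 0.0420 by edgeR). The Lenti-AS samples stood 40.6% and 66.1% above the Lenti-GFP mean, the widest difference between Lenti-AS replicates in the group on that relative scale. Plk4, the kinase that licenses the duplication of centrioles, changed least, from 36.5 and 36.3 CPM to 46.1 and 47.1 CPM. Its samples lay close within each group, 0.182 and 1.00 CPM apart, but its log2 fold change of 0.36 was under the fold limit and its adjusted p was 0.0558 by edgeR, so it was not called.

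All 3 spindle checkpoint genes of the group were called. Ttk, which starts checkpoint signaling at unattached kinetochores, had the smallest adjusted p of the 10 and the closest Lenti-AS replicates. It had 32.0 and 32.1 CPM in Lenti-GFP and 45.90 and 45.97 CPM in Lenti-AS (log2 fold change 0.52 with a standard error of 0.0632, adjusted p = 0.0264 by edgeR). Bub1, the kinetochore scaffold kinase, had 69.6 CPM in both Lenti-GFP samples, and 96.9 and 88.7 CPM in Lenti-AS (log2 fold change 0.42 with a standard error of 0.0700, adjusted p = 0.0499 by edgeR). Bub1b, whose product binds and inhibits CDC20, had 62.6 and 63.8 CPM in Lenti-GFP and 84.5 and 82.6 CPM in Lenti-AS (log2 fold change 0.40 with a standard error of 0.0629, adjusted p = 0.0436 by edgeR). In all 3 genes the distance between the groups was larger than that between replicates.

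**Figure D2:**
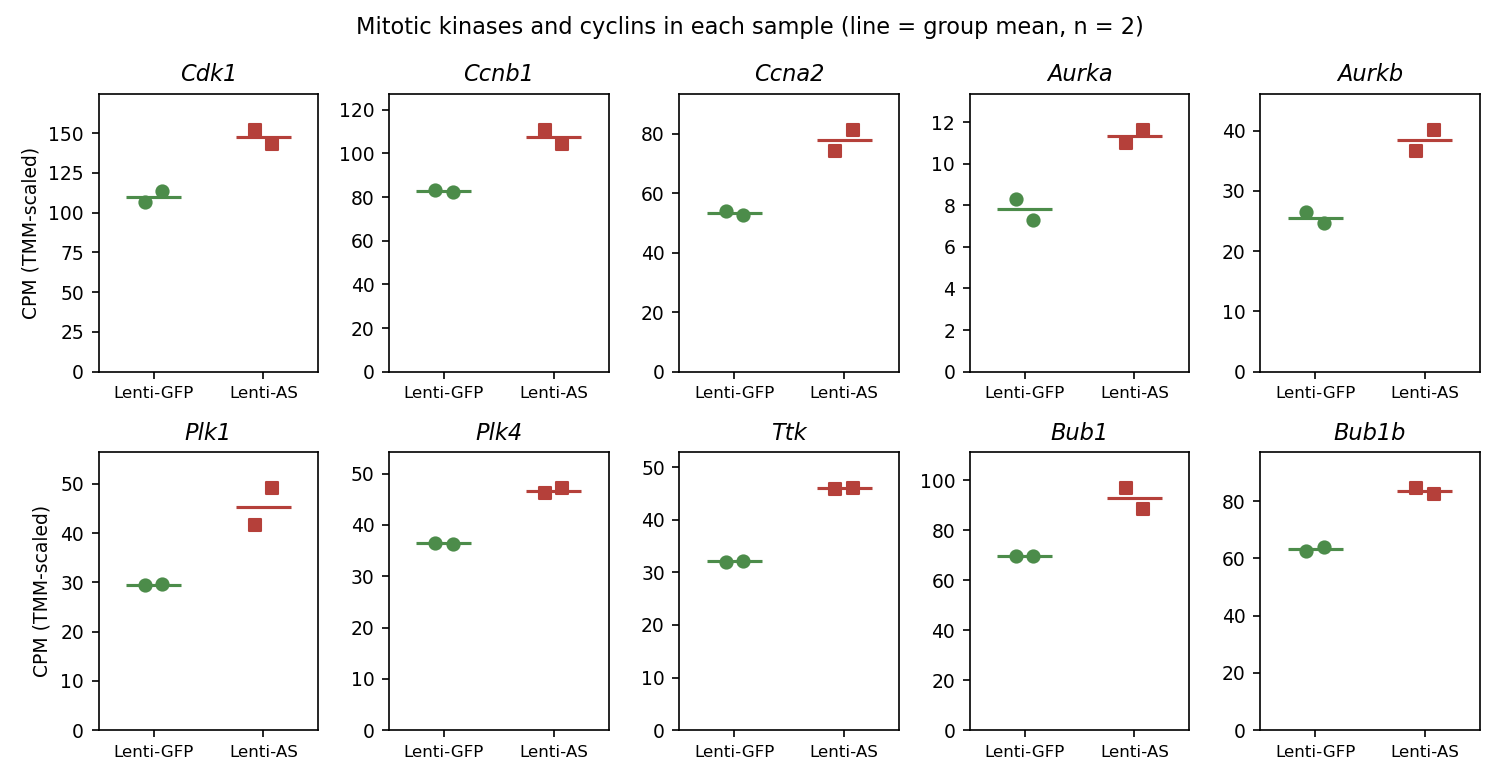
CPM of the 10 mitotic genes in each sample, with circles for Lenti-GFP, squares for Lenti-AS and a line for the mean of each group (n = 2); each panel has its own linear axis from 0. In all 10 panels both Lenti-AS samples lie above both Lenti-GFP samples, and the Lenti-AS samples of Plk1, at 41.6 and 49.1 CPM, are the farthest apart relative to the Lenti-GFP mean.

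In order of fitted change the genes ran Plk1, Aurkb, Ccna2, Aurka, Ttk, Cdk1, Bub1, Bub1b, Ccnb1 and Plk4. The 95% intervals of neighbours in this order overlapped, as did those of the highest (log2 fold change 0.39 to 0.85 for Plk1) and the lowest (0.20 to 0.52 for Plk4), and differences in fold change between genes were not tested in the fit. The intervals of all 10 lay above 0. The median log2 fold change was 0.47, against 0.0071 over all genes tested, and the 10 genes lay between the 85.1 and 94.5 percentile of the fitted changes of all genes. Their adjusted p-values, from 0.0264 to 0.0813, all lay near the threshold of 0.05. In 4 of the genes Lenti-AS 1 was the higher of the Lenti-AS samples (Cdk1, Ccnb1, Bub1 and Bub1b) and in 6 it was Lenti-AS 2. With DESeq2, the tool of the study's methods, 8 of the 10 were called, now with Aurka, where 3.92% of all genes were called higher, and the adjusted p-values of the 10 ran from 2.51e-08 to 0.00708. Without either Lenti-GFP sample 0 of the 10 were called, as were 0 genes higher in the whole table, while 6 were called without Lenti-AS 1 and 9 without Lenti-AS 2, fits in which 4.62% and 10.2% of all genes were called higher. Over these 4 fits the median log2 fold change of the 10 stayed between 0.45 and 0.48. An exact permutation test of any single gene, 2 samples against 2, cannot give a two-sided p under 0.333.

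**Figure D3:**
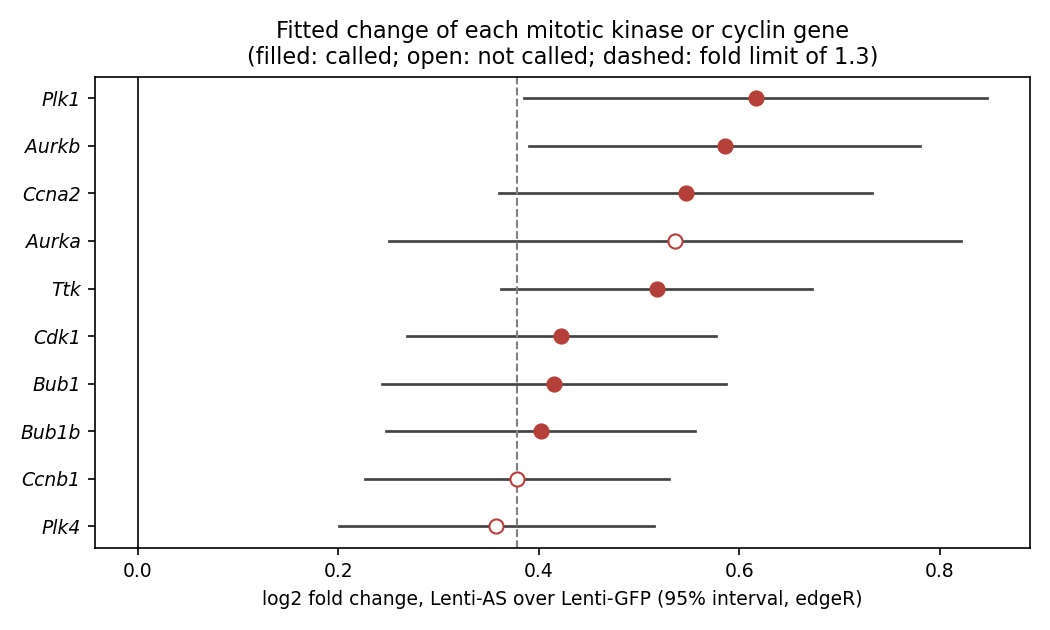
Fitted log2 fold change of Lenti-AS over Lenti-GFP with its 95% interval by edgeR for each gene, filled where the gene was called, with the fold limit of 1.3 as a dashed line. All intervals lie above 0 and overlap, and Aurka, Ccnb1 and Plk4 are open.

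To set the group beside the genes it works with, 93 partner genes in 9 lists were taken by function. Of these 82 had a row and were tested, 12 were called higher and 0 lower (1.31% and 0.667% of all genes tested), and their median log2 fold change was 0.16. Among partners of the Aurora kinases, Tpx2, which activates Aurora A on the spindle, rose from 66.4 and 68.8 CPM to 99.997 and 106.7 CPM (log2 fold change 0.61, adjusted p = 0.0236 by edgeR), and Birc5, the survivin subunit of the passenger complex, by 0.55 on the log2 scale (adjusted p = 0.0471 by edgeR). The complex's other subunit genes Incenp and Cdca8 had log2 fold changes of 0.56 and 0.35 and were not called by edgeR (adjusted p = 0.0813 and 0.0842). DESeq2 called Incenp (adjusted p = 0.000549) but not Cdca8. Of the 5 tested genes of this list 2 were thus called higher by edgeR and 3 by DESeq2, and 4 were higher and 0 lower at an unadjusted p under 0.05 by edgeR.

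Around CDK1, 4 of 17 tested genes were called higher by edgeR and 8 by DESeq2. Those called by DESeq2 alone were Cdc25b, Pkmyt1, Wee1 and Cks2, with log2 fold changes of 0.69, 0.64, 0.53 and 0.44 by edgeR. Ccnb2, the second B-type cyclin, rose from 43.0 and 45.5 CPM to 71.8 and 67.6 CPM (log2 fold change 0.65, adjusted p = 0.0252 by edgeR), and Ccnf, which encodes a ubiquitin ligase subunit, by 0.59 (adjusted p = 0.0389 by edgeR). The other genes called by edgeR encode proteins that can restrain the kinase. Cdkn1a, which encodes the CDK inhibitor p21, had 16.8 and 15.2 CPM in Lenti-GFP and 61.5 and 41.2 CPM in Lenti-AS (log2 fold change 1.68 with a standard error of 0.19, adjusted p = 0.0247 by edgeR), and Gadd45a, a stress gene whose product can inhibit CDK1, had a log2 fold change of 0.42 (adjusted p = 0.0252 by edgeR). Cdkn1b, which encodes the related inhibitor p27, had 217 and 212 CPM in Lenti-GFP and 201 and 203 CPM in Lenti-AS and was not called (adjusted p = 0.357 by edgeR).

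Of the anaphase-promoting complex, the ubiquitin ligase that ends mitosis, 2 of 18 genes tested were called. Cdc20, the activator that the checkpoint inhibits, rose from 38.8 and 35.2 CPM to 57.4 and 60.3 CPM (log2 fold change 0.67, adjusted p = 0.0252 by edgeR). Ube2c, the ubiquitin-conjugating enzyme of the complex, rose by 0.65 (adjusted p = 0.0191 by edgeR). These were 2 of the 5 tested genes for activators, inhibitor and ubiquitin-conjugating enzymes, all 5 of which were higher at an unadjusted p under 0.05. Of the 13 core subunit genes tested, 0 were called in either direction by edgeR or DESeq2, with log2 fold changes from -0.24 to 0.0940. At an unadjusted p under 0.05 by edgeR, 3 were lower and 0 higher. Of all genes tested 12.5% were higher at that limit. The share lower was not computed, so counts of lower genes here and in the lists that follow lack that comparison. The most counted core subunit gene, Anapc5, had 471 and 470 CPM in Lenti-GFP and 425 and 433 CPM in Lenti-AS (adjusted p = 0.203 by edgeR). The difference between these sets of genes was not tested. The list of anaphase substrates had 0 of 4 genes called by edgeR, 1 by DESeq2 and 4 higher at an unadjusted p under 0.05, and a median log2 fold change of 0.48, with its most counted gene, the cohesin subunit Rad21, at 0.34 (adjusted p = 0.0693 by edgeR).

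Of the checkpoint partners 0 of 8 were called by edgeR and 1 by DESeq2 (Knl1), and 3 were higher at an unadjusted p under 0.05. Of its 4 most counted genes, Knl1, a kinetochore scaffold, and Mad2l1, a checkpoint protein gene, had log2 fold changes of 0.39 and 0.35 (adjusted p = 0.0801 and 0.0574 by edgeR). Bub3, whose product binds both BUB1 and BUBR1, had 149 and 151 CPM in Lenti-GFP and 141 and 148 CPM in Lenti-AS (log2 fold change -0.0522, adjusted p = 0.601 by edgeR). Zwint, another kinetochore protein gene, had 114 and 105 CPM in Lenti-GFP and 93.2 and 109 CPM in Lenti-AS, so its groups overlapped (log2 fold change -0.12, adjusted p = 0.497 by edgeR). No gene of the Greatwall and PP2A list (6 tested) or among the centriole partners of PLK4 (3 tested) was called by edgeR. DESeq2 called 1 and 0 of them higher, and at an unadjusted p under 0.05 the first list had 2 genes higher and 1 lower and the second 0. Their most counted genes, Ppp2ca and Cenpj, had log2 fold changes of -0.18 and 0.0223. Among 11 other mitotic or related kinases, 2 were called higher by edgeR and 4 by DESeq2, and 4 were higher and 0 lower at an unadjusted p under 0.05. The mitotic kinases Nek2 and Melk rose by 0.56 and 0.50 on the log2 scale (adjusted p = 0.0428 and 0.0389 by edgeR). DESeq2 alone called Cit and Pbk, with log2 fold changes of 0.67 and 0.55 by edgeR (adjusted p = 0.00123 and 0.000415 by DESeq2). Plk2, a paralog of Plk1 that responds to stress, had 1224 and 1212 CPM in Lenti-GFP and 1131 and 1178 CPM in Lenti-AS (adjusted p = 0.429 by edgeR). Of the transcription factors that act on G2 and mitosis genes, 2 of 10 were called by edgeR and 3 by DESeq2. At an unadjusted p under 0.05, 5 were higher and 0 lower. EdgeR called Foxm1, from 8.81 and 7.79 CPM to 13.5 and 13.4 CPM (log2 fold change 0.70, adjusted p = 0.0417 by edgeR). It also called Rbl1, a pocket protein of the repressor complex that binds the CHR, at 0.51 (adjusted p = 0.0389 by edgeR). The paralog Rbl2 was at -0.0064 and changed sign with library totals or upper-quartile factors. Mybl2 was called by DESeq2 alone (log2 fold change 0.62, adjusted p = 0.0845 by edgeR and 0.00576 by DESeq2).

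**Figure D4:**
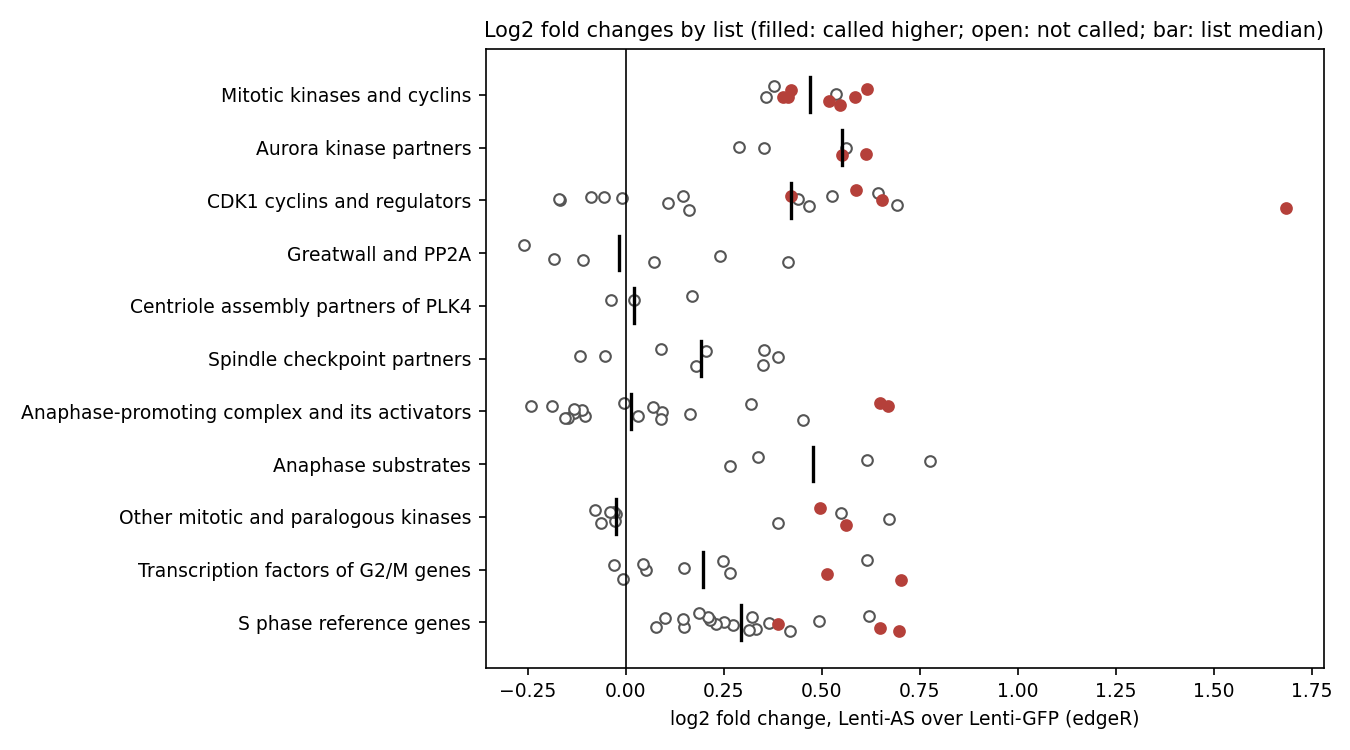
Log2 fold change of each tested gene by list by edgeR, filled where called higher and open where not, with a bar at the list's median and small vertical offsets to separate points. The mitotic kinases and cyclins form a narrow band from 0.36 to 0.62, most lists of partners spread to both sides of 0 while the Aurora kinase partners and anaphase substrates lie above it, and the point farthest right is Cdkn1a at 1.68.

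The S phase genes gave a comparison with an earlier stage of the cycle. Of 20 genes, mostly of replication, licensing and nucleotide supply, 3 were called higher against 1.31% of all genes tested. These were Mcm3, Rrm2 and Mcm5, with log2 fold changes of 0.70, 0.65 and 0.39 (adjusted p = 0.0276, 0.0192 and 0.0428 by edgeR). All 20 had a fitted change above 0, 19 were higher in both Lenti-AS samples and 15 had an unadjusted p under 0.05, against 27.7% and 12.5% of all genes tested. Their median log2 fold change was 0.29, against 0.47 for the mitotic genes. Pcna, the sliding clamp of replication and the most counted, had 264 and 261 CPM in Lenti-GFP and 299 and 283 CPM in Lenti-AS and was not called (log2 fold change 0.15, adjusted p = 0.198 by edgeR). The summed counts of the 10 mitotic genes over those of the 20 S phase genes were 0.433 and 0.432 in the Lenti-GFP samples and 0.495 and 0.504 in the Lenti-AS samples. A ratio within a sample does not depend on library size, and this one was higher in both Lenti-AS samples, by 0.21 on the log2 scale (exact permutation p = 0.333, two-sided, the smallest possible).

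Ratios of counts among the 10 genes, and of some of them to a partner gene, were compared in the same way. Ccnb1 over Cdk1 was 0.781 and 0.726 in Lenti-GFP and 0.729 and 0.731 in Lenti-AS, so the groups overlapped. Ccna2 over Cdk1 (0.463 to 0.568), Aurka over Aurkb (0.290 to 0.313) and Bub1b over Bub1 (0.872 to 0.931) also overlapped. Plk1 over Plk4 was 0.808 and 0.818 in Lenti-GFP and 0.902 and 1.04 in Lenti-AS, and Ccna2 over Ccnb1 was 0.646 and 0.638 against 0.669 and 0.778. Ttk over Bub1 was 0.460 and 0.462 against 0.474 and 0.518. In each of these ratios the groups were apart, and Lenti-AS 2 was the farther sample. Of the ratios to a partner gene, Ccnb1 over Ccnb2 was 1.94 and 1.81 in Lenti-GFP and 1.54 and 1.55 in Lenti-AS. Plk1 over Plk2 went from 0.0241 and 0.0245 to 0.0368 and 0.0417, and Bub1b over Bub3 from 0.421 and 0.423 to 0.598 and 0.560. Cdk1 over the inhibitor gene Cdkn1a was 6.37 and 7.46 in Lenti-GFP and 2.47 and 3.47 in Lenti-AS. Cdk1 over Cdc25b was 27.4 and 28.8 against 25.6 and 21.2. Other ratios to a partner gene overlapped between the groups. Aurka over Tpx2 was 0.125 and 0.106 in Lenti-GFP and 0.110 and 0.109 in Lenti-AS. Aurkb over Incenp was 0.735 and 0.761 against 0.814 and 0.715, and Cdk1 over Wee1 13.1 and 16.7 against 15.3 and 12.3. These ratios compare samples, not the amounts of 2 transcripts, because counts were not divided by gene length, and each separation has an exact permutation p of 0.333 (two-sided). With 2 samples a group, an overlap does not show that a ratio stayed the same.

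**Figure D5:**
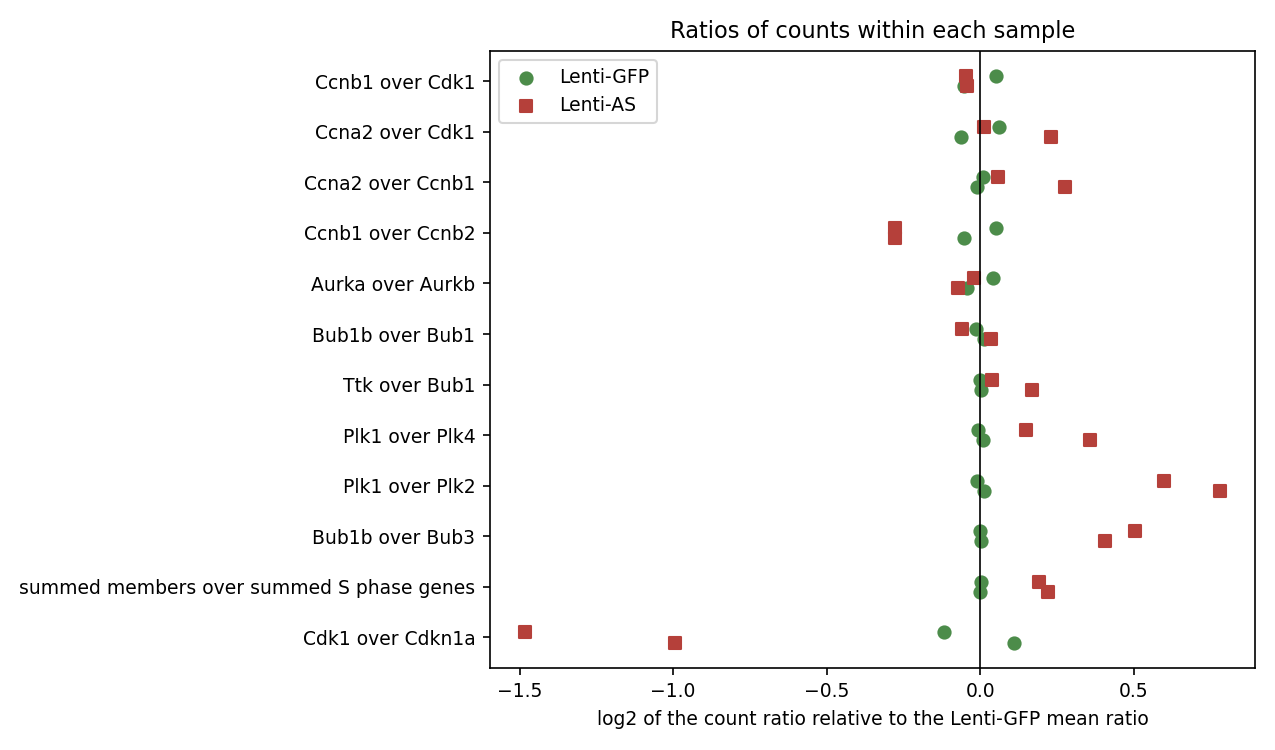
Ratios of counts within each sample, as the log2 of the ratio relative to the Lenti-GFP mean ratio, with circles for Lenti-GFP and squares for Lenti-AS (n = 2 each). The Ccnb1 over Cdk1, Aurka over Aurkb and Bub1b over Bub1 ratios overlap between the groups, whereas those against Plk2, Bub3, Cdkn1a and the S phase genes do not.

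The genes with the profile most like that of the group were found among 7793 other genes that averaged 10 CPM or more, by the Euclidean distance between the centred log2(CPM + 0.5) values over the 4 samples and the mean profile of the 10 genes. The 8 nearest were Kif2c, Kif11, Hist1h2bk, Gas6, Clspn, Ddias, Kif20a and Gadd45a, at distances from 0.0372 to 0.0523, where the median of the genes compared was 0.516. Kif2c, Kif11 and Kif20a encode mitotic kinesins, Clspn a replication checkpoint protein and Hist1h2bk a histone, while Gas6 encodes a secreted ligand of TAM receptors. Kif11, a spindle motor, had 97.3 and 95.3 CPM in Lenti-GFP and 134 and 132 CPM in Lenti-AS. Gas6 had 82.7 and 78.5 CPM in Lenti-GFP and 112 CPM in both Lenti-AS samples. The 10 genes themselves lay between 0.0490 (Ttk) and 0.201 (Plk1) from their mean profile. With 4 samples, likeness of this kind says only that the levels moved by similar amounts.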

How the data were processed

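Per the paper's methods, 50 bp paired-end reads were aligned to rn6 with hisat2 and counted per gene with featureCounts over RefSeq exons; the submitters' processing notes list GSNAP in place of hisat2. Versions, strand setting and multiply matching reads are not given in the sources used here. The authors deposited raw counts per gene, not normalized and not pooled, for 17949 genes, and 1 row that repeats the header was dropped. Samples were matched to groups by title and column name.

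The 12446 genes reaching 10 counts in 2 samples were fitted with edgeR 4.0.16 (R 4.3.3): TMM factors, glmQLFit in its default form and glmQLFTest on the group term with no covariate, Benjamini-Hochberg over all genes tested. Standard errors came from the F statistic, and the biological coefficient of variation was 12.1%. DESeq2 1.42.0, limma-voom (limma 3.58.1) and other scalings, filters and cut-offs were alternatives, and the adjusted p that DESeq2 left out for 2413 genes was kept as missing, these genes standing as not called. Counting error of a single value of the 10 genes was at most 3.81%.

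The genes, lists and ratios were chosen with earlier results of these data known. Named were the 10 genes, called genes of the partner and S phase lists, the uncalled gene of each list with the highest mean CPM (for the Aurora kinase and checkpoint partners the first 2 and 4), and the 8 nearest profiles. Some genes that only DESeq2 called, and the partner genes of the ratios, were named as well. Promoters were matched by symbol in RefSeq (GRCr8). Gene length was not used.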

Additional observations from a re-analysis of the deposited data

How the results depend on the processing

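The direction of all 10 mitotic genes was kept under each test, scaling, filter, block and left-out sample tried, and their median log2 fold change moved between 0.45 and 0.50. The count called higher (7) was 7 to 9 under the other tests, scalings and filters, 2 with a fold change of at least 1.5 and 0 with an adjusted p under 0.01. Leaving out one sample gave 0 to 9 mitotic genes, 0 to 26 partner genes and 0 to 6 S phase genes called higher, and 0 to 1 partner gene called lower. The lowest values came without a Lenti-GFP sample, where the spread rests on the Lenti-AS samples.

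For partner genes called higher (12), DESeq2 gave 23, the likelihood ratio test 21, a fold change of at least 1.5 gave 7, an adjusted p under 0.01 gave 0 and under 0.1 gave 22. For S phase genes (3) these were 6, 5, 2, 0 and 5. The cause was not tested. Over all genes, 163 were called higher and 83 lower, against 488 and 139 with DESeq2. On the gene's strand only, 3 of the 8 promoters held TTTGAA (37.5%). The share was 6.35% of the promoters of genes tested, 10.0% of all promoters and 25.8% of those of partner genes.

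Nothing in the labels ties equal replicate numbers to a common culture, and deviations from the group means showed no pairing (correlation -0.0123 over 12446 genes). Under a replicate block, 0 mitotic genes, 1 partner gene and 0 S phase genes were called higher (3 genes in the whole table), with adjusted p-values of the 10 mitotic genes from 0.0877 to 0.154 by edgeR and the same direction.

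Genes near 0 changed sign: Rbl2 was at 0.0256 when scaled by library totals and 0.0043 by upper quartiles. Leaving out one sample gave -0.0106 to 0.0597 for Cenpj and -0.0555 to 0.0485 for Rbl2. Counting error was largest for Aurka, at 3.81%.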
